A study of Homo sapiens with 6 samples.

Results

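Distal SMARCA4 peaks with a GATA site and no AP-1 site numbered 6944 of the 28265 peaks of K562 cells. A peak counted as distal when its midpoint lay over 1 kb from the transcription start site (TSS) of every annotated transcript. The central 200 bp had to hold AGATA or TGATA followed by A or G, on either strand, and neither TGACTCA nor TGAGTCA, which are 1 site read on its 2 strands. Peaks with a G-quadruplex (G4) motif, here 4 stretches of 3 or more guanines joined by loops no longer than 7 bases, were left out. K562 cells derive from a chronic myelogenous leukaemia and express many genes of red cell precursors. Cells were fixed with 2 mM disuccinimidyl glutarate (30 min) and 1% formaldehyde (10 min), and chromatin fragments measured 150 to 400 bp. There were 3 SMARCA4 ChIP libraries and 3 input libraries by their titles. The design text of the labels counts 1 input and calls the replicates technical, whereas the results section of the paper calls them biological. The deposited list pools the replicates and gives a start and an end for each region found in at least 2 of them, so the list itself shows no spread between replicates, peak heights or read depths.

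SMARCA4 is the motor subunit of SWI/SNF complexes, which use ATP to move or remove nucleosomes and do not recognise a DNA word of their own. GATA factors bind the core GATA with zinc fingers. In the red cell lineage GATA1 acts in a complex with TAL1, LMO2 and LDB1, in which TAL1 and its partner contact an E-box or 1 arm of it next to the GATA site. Such elements mark many enhancers of globin, heme and red cell membrane genes. AP-1 sites are bound by FOS and JUN dimers and, in a longer form, by the erythroid factor NFE2, so peaks with a GATA site alone set apart the GATA elements that lack this other word.

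The following stretches of hg19 come from peaks whose GATA site carried such an arm, and they are shown because this arrangement separated the peak centres from their flanks. Each is 60 bases long, is written 5′ to 3′ on the strand of the GATA site, and has the GATA site and the arm CTG in capitals. By a rule set beforehand they come from the members closest to a list on red cell biology, where these had the arm, and from members near such a gene that had it within 10 bp of the centre, of which 6 are given. The members closest to the globin, iron and cytokine lists did not have it.
ALAS2, chrX:55054606-55054665, plus strand, intron: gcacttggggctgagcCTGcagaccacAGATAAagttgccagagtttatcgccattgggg
CPOX, chr3:98302806-98302865, minus strand, intron: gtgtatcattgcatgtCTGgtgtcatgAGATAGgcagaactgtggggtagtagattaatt
SLC4A1, chr17:42344060-42344119, plus strand, intron: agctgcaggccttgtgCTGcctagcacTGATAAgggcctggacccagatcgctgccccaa
EPB41, chr1:29229367-29229426, plus strand, intron: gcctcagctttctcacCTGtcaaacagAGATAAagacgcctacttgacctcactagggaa
RHAG, chr6:49614134-49614193, plus strand, intergenic: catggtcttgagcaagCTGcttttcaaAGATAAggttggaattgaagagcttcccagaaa
ABCB10, chr1:229690967-229691026, minus strand, intron: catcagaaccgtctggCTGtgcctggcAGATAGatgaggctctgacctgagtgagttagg
PIM1, chr6:37170740-37170799, plus strand, intergenic: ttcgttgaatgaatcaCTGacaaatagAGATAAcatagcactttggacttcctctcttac
GATA2, chr3:128202127-128202186, minus strand, intron: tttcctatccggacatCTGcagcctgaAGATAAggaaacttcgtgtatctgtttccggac

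In every one of these 8 stretches 8 bases separate CTG from the GATA site, where the selection allowed only a gap of 7 or 8. Among all GATA sites in the central 200 bp of the members 11.3% had CTG at a gap of 8 and 6.21% at a gap of 7. The member near ALAS2, which encodes the first enzyme of heme synthesis in red cells, spans chrX:55054404-55054865 (462 bp) inside the gene, with its midpoint 2774 bp from a TSS and the site 1 bp from the peak centre. The member at CPOX, a later enzyme of the same pathway, spans chr3:98302403-98303263 (861 bp) and has its site 3 bp from the centre. SLC4A1 encodes the anion exchanger of the red cell membrane. Its member at chr17:42343659-42344648 (990 bp) holds 2 GATA sites in the central 200 bp, 1 of them with the arm. EPB41 encodes a protein of the membrane skeleton and has its site 6 bp from the centre of a 368-bp peak. RHAG encodes a protein of the Rh blood group complex, and its member was 1301 bp wide. ABCB10 encodes a mitochondrial transporter needed for heme synthesis, and the peak of 1065 bp lay 3449 bp from its TSS. PIM1 encodes a kinase induced by cytokines, and this member lay 30498 bp from a TSS of the gene, with TMEM217 closer, at 15497 bp. GATA2 encodes a GATA factor of blood progenitors. Its member at chr3:128201642-128202489 (848 bp) has the site 91 bp from the centre, and the CTG lies just beyond the window.

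Distal peaks numbered 14352, and 13104 of these were free of G4 motifs. The members made up 53.0% of the latter (95% Wilson interval 52.1 to 53.8%). Of the other classes, 1089 peaks (8.31%) had an AP-1 and no GATA site, 1456 (11.1%) had both and 3615 (27.6%) had neither. For comparison, a window of 200 bp was taken every 2 kb along hg19, over 1 kb from any TSS. Of 1321987 such windows, 35.9% held a GATA site and no AP-1 site, so the combination alone is common in the genome. A GATA site was found in 37.0% of the windows and in 64.1% of the distal G4-free peaks, and an AP-1 site in 3.03% and 19.4%. Exclusion for a G4 motif removed 391 distal peaks that met the other criteria. At the 1-kb limit, 111 members had a midpoint 1001 to 1100 bp from a TSS, with a median width of 307 bp and a GC content of 45%. Just outside the limit, 114 peaks lay 901 to 1000 bp from a TSS and otherwise met the rule, with medians of 301 bp and 44.5%.

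The members had a median width of 343 bp (95% binomial interval of the median 337 to 349 bp), with 238 and 510 bp as the 25th and 75th percentiles and a range from 3 to 2290 bp. The peaks with an AP-1 site alone had a median of 325 bp (interval 310 to 340 bp), those with both sites 355.5 bp (342 to 367 bp) and those with neither 291 bp (284 to 299 bp). Wide peaks, at or above the median of 329 bp of all distal G4-free peaks, made up 53.0% of the members. They made up 49.1% of the AP-1 class (odds ratio 1.17, 95% interval 1.03 to 1.33, adjusted p = 0.0304, Fisher's exact test, 2-sided). This call ended under 5 of 12 alternatives, with odds ratios from 1.09 to 1.34 over all 12. In the class with neither site 43.0% of the peaks were wide (odds ratio 1.49, interval 1.38 to 1.62, adjusted p = 9.60e-22, Fisher's exact test). This call ended when peaks at most 500 bp apart were merged (odds ratio 1.10), and the comparison turned with a threshold of 600 bp (0.953, adjusted p = 0.495, Fisher's exact test). The odds ratio was 1.12 for peaks of at least 200 bp and 1.27 without exclusion of G4 motifs. G4 motifs were sought over the whole peak, so their exclusion depends on width, and the comparisons of width are not free of it. The peaks with neither site were thus more often narrow. Peaks of 1500 bp and over made up 1.08% of them and 0.374% of the members, a difference that was not tested. Regions are not independent replicates, and these intervals and those that follow cover counting error only.

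**Figure D1:**
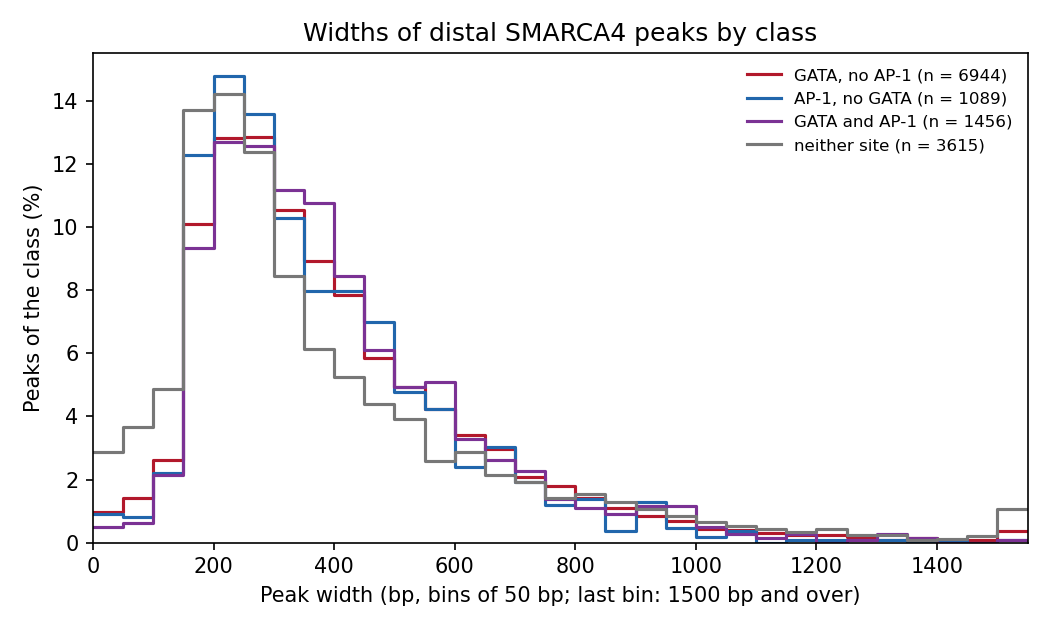
Share of the peaks of each class (vertical axis, %) by peak width (horizontal axis, bp, bins of 50 bp) for the 4 classes of distal G4-free peaks. The medians were 343 bp for peaks with GATA and no AP-1 site, 325 bp with AP-1 alone, 355.5 bp with both and 291 bp with neither, and the last class has more peaks under 200 bp.

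Of the members, 1047 (15.1%) were narrower than the 200-bp window in which the sites were sought, against 25.1% of the peaks with neither site. A GATA site lay wholly inside the peak in 6772 members (97.5%) and in 875 of the narrow ones (83.6%). Beyond the window, 474 members (6.83%) held an AP-1 site elsewhere in the peak. The median GC content of the central 200 bp was 44.5% in the members and in the peaks with both sites, 48.5% with AP-1 alone and 50.5% with neither. The GATA words are themselves rich in A and T, and the comparisons of motifs, position and width with the AP-1 peaks and the peaks with neither site were therefore also made within classes of 2 percentage points of GC content. The comparisons of GATA sites with each other and of members with other members were not.

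The widest member, of 2290 bp, lay on chromosome 6 at chr6:26311354-26313643, and the next widest, of 2250 bp, at chr6:26295823-26298072. H4C8, a gene for histone H4, was the closest protein-coding gene to both, 26737 and 11186 bp away. The others of the 5 widest were at chr2:238872132-238874252 (2121 bp), 2405 bp from UBE2F, at chr19:4374347-4376383 (2037 bp) inside SH3GL1, and at chr15:42790827-42792737 (1911 bp) inside SNAP23. In the central 200 bp these 5 held 1 or 2 GATA sites each and none with the arm, and the rest of each peak was not counted. UBE2F encodes a conjugating enzyme for NEDD8, SH3GL1 an endophilin and SNAP23 a protein of membrane fusion.

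Most members held few GATA sites in the central 200 bp, to which all counts of GATA sites per member refer. A single site was found in 3584 members (51.6%), 2 sites in 2360 (34.0%), 3 in 796 (11.5%), 4 in 172 and 5 in 30, while 2 members had more. The member with the most, at chrX:47676866-47677341, held 12 sites, 7 of which do not overlap, and 11 of the 12 lie in a tandem repeat. At chr17:548971-549676, in an intron of VPS53, sites on the same strand recurred 85 bp apart. Parts of both are given with the GATA sites, read on either strand, in capitals.
Tandem repeat, chrX:47677120-47677179, minus strand: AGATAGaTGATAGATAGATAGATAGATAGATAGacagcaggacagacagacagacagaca
VPS53, chr17:549284-549343, minus strand: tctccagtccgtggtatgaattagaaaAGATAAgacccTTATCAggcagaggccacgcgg

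When only sites that do not overlap were counted and the wider peak was taken in a tie, the next members, with 5 each, lay at chr7:158627763-158628797 (1035 bp), chr9:113133548-113134226 (679 bp, inside SVEP1) and chr22:42241899-42242436 (538 bp, inside SREBF2, which encodes a regulator of cholesterol synthesis). The last held 2 sites with the arm. Median width was 330 bp (interval 321 to 337 bp) with 1 site, 356.5 bp (347 to 366 bp) with 2 and 353 bp (336 to 377 bp) with 3. Wide peaks made up 55.6% of the 1000 members with 3 or more sites and 50.1% of those with 1, a comparison chosen once the data were known (odds ratio 1.25, interval 1.08 to 1.43, adjusted p = 0.00480, Fisher's exact test). The call ended for peaks of at least 200 bp (odds ratio 1.14), for merged peaks (1.12) and with a central window of 100 bp (1.01). Median GC content fell from 46% with 1 site to 40.5% with 4.

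The GATA sites crowded at the peak centre, though not in the widest peaks. Their density was 215 per 1000 members in each 20-bp bin next to the midpoint and 113 at 80 to 100 bp from it, the margin of the window. The rule fixes the drop at 100 bp but not the slope inside the window. Of the 11549 central sites 32.7% (interval 31.9 to 33.6%) had their centre within 25 bp of the midpoint, where an even spread over the window gives 26.2%. Among members with 1 site the share was 33.7% (32.2 to 35.3%), and among the widest 1736 members it was 26.8%, close to an even spread. Just outside the window, at 100 to 120 bp, the density was 66.5 per 1000 members, 1.56 times the 42.6 found at 400 to 500 bp. This ratio was not particular to the members, with 1.55 for the peaks with both sites and 1.72 for those with neither, and it was 1.11 for the AP-1 peaks.

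**Figure D2:**
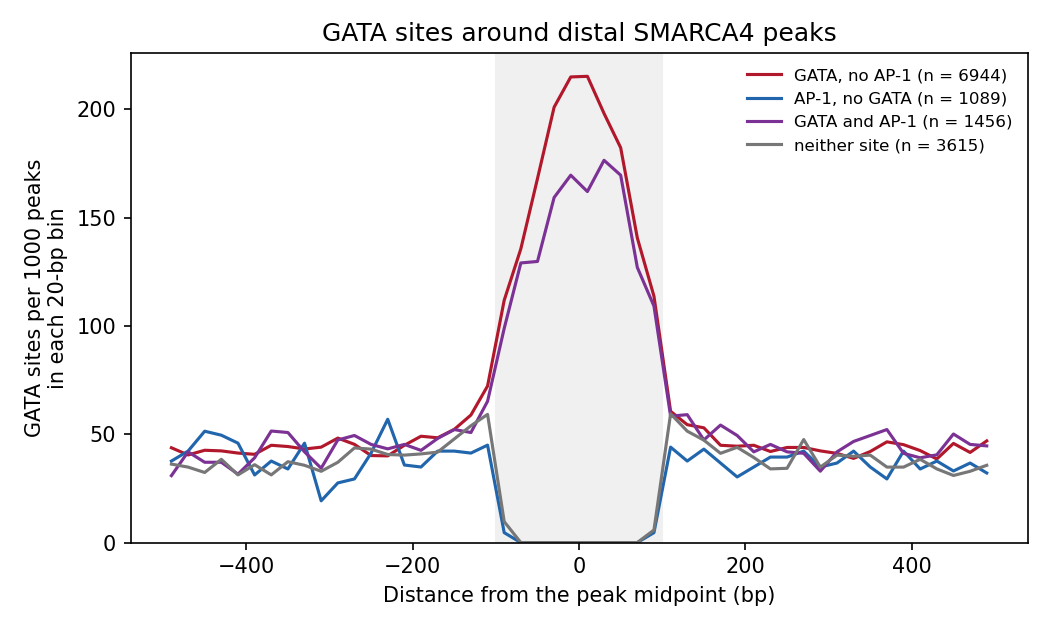
GATA sites per 1000 peaks (vertical axis) in bins of 20 bp by distance from the peak midpoint (horizontal axis, bp) for the 4 classes, with the central 200 bp shaded, where presence or absence follows from how the classes are defined but the slope does not. The density of the peaks with GATA and no AP-1 site is 215 next to the midpoint and 42.6 at 400 to 500 bp.

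The spelling of the sites differed between the centres and the flanks of the same peaks. AGATAA was the word at 50.3% of the central sites and at 35.6% of the 5721 sites found 400 to 600 bp away (odds ratio 1.84, interval 1.72 to 1.961, adjusted p = 6.07e-75, Fisher's exact test). TGATAA was about as frequent in both places, with 26.1% and 27.1%. AGATAG and TGATAG were less frequent at the centre, with 14.7% against 21.2% and 8.84% against 16.2%. In the genome windows 34.0% of 648605 sites read AGATAA, close to the flanks.

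The base after the site differed more. G followed 40.6% of the central sites and 21.9% of the flanking ones (odds ratio 2.44, interval 2.27 to 2.62, adjusted p = 3.50e-135, Fisher's exact test). The word AGATAAG, in which both preferences meet, accounted for 22.9% of the central sites (interval 22.1 to 23.6%), for 7.48% of the flanking ones (6.83 to 8.19%) and for 6.18% of the sites in the genome windows. A and T were less frequent after central sites, with 25.3% against 35.9% and 15.6% against 26.1%. Before the site, C stood at 30.0% of the central and 23.5% of the flanking sites. Central sites lay on the plus strand in 50.3% of cases.

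A clear spacing was found between the GATA sites and the E-box arm CTG on the same strand. When the gap between CTG and the GATA site was varied from 0 to 40 bases, 11.3% of the central sites (interval 10.8 to 11.9%) had CTG at a gap of 8 and 6.21% (5.78 to 6.66%) at a gap of 7. At a gap of 9 the share was 3.99%. Over the 36 gaps outside 6 to 10 it stayed between 2.19 and 2.99%, with a median of 2.53%. The share at a gap of 8 was thus 4.47 times this median. At the flanking sites the median was 1.77% and the share at a gap of 8 was 1.38 times as high. No such gap appeared on the other side of the site, where the mirrored arm ranged from 2.21 to 3.37% over the same gaps. At a gap of 8, CTG completed the E-box CANCTG in 15.2% of cases, against 8.27% at the gaps outside 6 to 10.

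**Figure D3:**
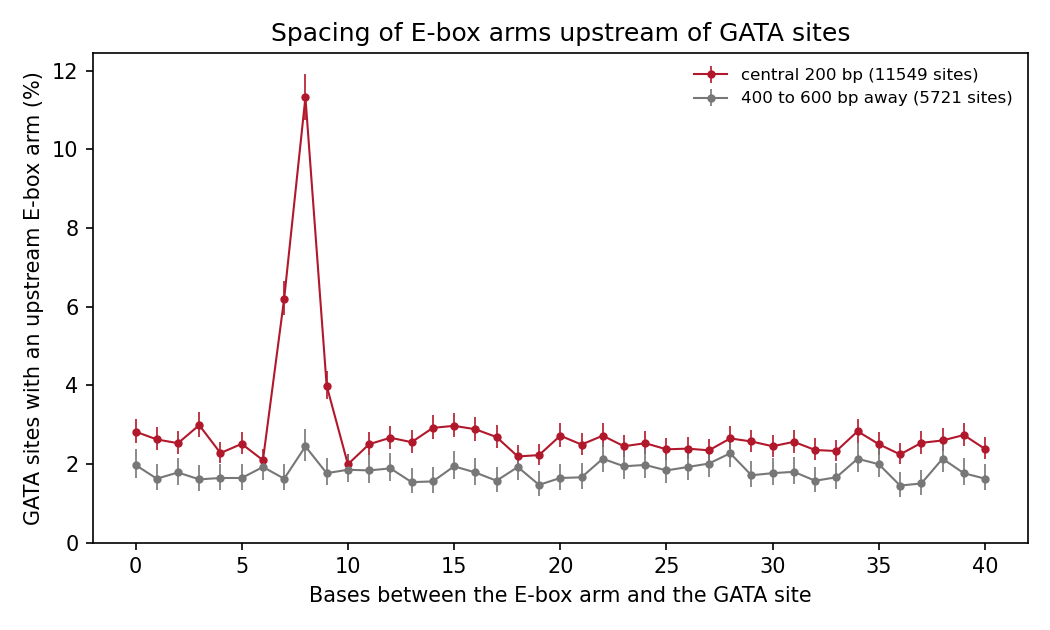
Share of GATA sites (vertical axis, %, with 95% Wilson intervals) that have the E-box arm CTG on the same strand upstream, by the number of bases between them (horizontal axis), for 11549 sites in the central 200 bp and 5721 sites 400 to 600 bp away. The central sites reach 11.3% at a gap of 8 and 6.21% at a gap of 7 above a median of 2.53%, and the flanking sites 2.45% at a gap of 8.

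CTG at a gap of 7 or 8, called the composite from here on, was present at 17.5% of the central sites and 4.07% of the flanking sites (odds ratio 5.01, interval 4.36 to 5.76, adjusted p = 2.41e-157, Fisher's exact test). In the genome windows 3.14% of the sites had it. The odds ratio lay between 4.18 and 5.95 over the 12 alternatives. It was carried by 1916 members (27.6%, interval 26.6 to 28.7%). Composite sites read AGATAA more often than the other central sites, with 57.7% against 48.8% (odds ratio 1.43, interval 1.30 to 1.58, adjusted p = 1.49e-12, Fisher's exact test), and 36.9% of them lay within 25 bp of the midpoint against 31.8%. Members with the composite were wider, and they also held more GATA sites, with a median of 2 against 1. Their median width was 374.5 bp (interval 363 to 386 bp) against 328 bp (322 to 335 bp), and 61.4% of them were wide against 49.9% of the others (odds ratio 1.598, interval 1.44 to 1.78, adjusted p = 3.21e-17, Fisher's exact test). Both comparisons were chosen once the data were known. Among the narrowest 1736 members 21.2% carried the composite, and among the widest 1736, of 510 bp and over, 33.1% did.

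The GATA sites of the members also differed from those of the 1456 peaks with both sites, again in comparisons chosen once the data were known. The composite was found at 17.5% of the members' sites and at 11.7% of the 2067 sites in those peaks (odds ratio 1.603, interval 1.39 to 1.85, adjusted p = 6.00e-11, Fisher's exact test), and with a central window of 100 bp the odds ratio rose to 2.46. G followed 40.6% and 33.7% of the sites (odds ratio 1.34, interval 1.22 to 1.48, adjusted p = 1.00e-08, Fisher's exact test). AGATAA made up 50.3% and 46.2% (odds ratio 1.18, interval 1.08 to 1.30, adjusted p = 0.00108, Fisher's exact test), and this call ended with a central window of 100 bp. In the peaks with both sites the share with CTG at a gap of 8 was 2.87 times the median of the other gaps.

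Pairs of GATA sites within 1 window had a weak preference for the same strand. Of 6167 pairs 55.2% (interval 54.0 to 56.5%) were on the same strand, and of the 1193 pairs over 100 bp apart 51.5% (48.6 to 54.3%). Starts 4 or 5 bp apart, as in tandem repeats of the word, made up 125 pairs, 120 of them on the same strand. Pairs farther apart within such repeats were not set apart. Every pair of a window was counted, so members with many sites weigh more, while the intervals treat all pairs as independent.

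Of 18 other motifs sought in the central 200 bp, 5 differed in frequency between the members and the AP-1 peaks and 13 between the members and the peaks with neither site (Fisher's exact test, adjusted p under 0.05 over the 36 tests). Within GC classes these counts were 2 and 10. The E-box CAGCTG, a word that TAL1 dimers bind, was in 16.3% of the members, 14.3% of the peaks with neither site and 6.70% of the genome windows. Against the peaks with neither site its odds ratio was 1.17 (interval 1.04 to 1.31, adjusted p = 0.0173, Fisher's exact test) and within GC classes 1.49 (1.31 to 1.69). This call ended when matches touching a GATA site were not counted (1.12), with the distance set to 2.5 kb (1.13) and with a window of 400 bp (1.04). It was more frequent with AP-1 alone, at 19.5% (odds ratio 0.808, adjusted p = 0.0257, Fisher's exact test), a difference that was lost within GC classes (0.964). The E-box CATATG was in 5.01% of the members and 2.90% of the peaks with neither site, and this call also ended within GC classes.

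The motif of CTCF, which anchors chromatin loops, was less frequent in the members than in the peaks with neither site. It was in 1.32% of them (interval 1.08 to 1.62%), in 1.56% of the AP-1 peaks, in 0.549% of the peaks with both sites and in 7.11% (6.32 to 7.99%) of the peaks with neither site, against 0.206% of the genome windows. The odds ratio of the members against the last class was 0.175 (interval 0.138 to 0.223, adjusted p = 2.35e-51, Fisher's exact test) and within GC classes 0.288 (0.220 to 0.376). The GC box GGGCGG of SP factors was in 4.09% of the members, 8.17% of the AP-1 peaks, 14.7% of the peaks with neither site and 2.35% of the windows. Within GC classes its odds ratio against the peaks with neither site moved from 0.248 to 0.736 (interval 0.615 to 0.881), and the difference from the AP-1 peaks was lost. CCNCNCCC, bound by KLF1 and related factors, was in 18.2% of the members, 23.6% of the AP-1 peaks, 29.0% of the peaks with neither site and 11.1% of the windows. Within GC classes neither difference remained and both odds ratios lay above 1 (1.13 with an interval of 0.954 to 1.33, and 1.02 with 0.917 to 1.14). The CRE TGACGTCA was in 7 members (0.101%) and in 0.526% of the peaks with neither site, a call that ended with a window of 100 bp, at a similar odds ratio (0.240 against 0.191).

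The MYB word, CAACNG or TAACNG, was more frequent in the members than in the AP-1 peaks or the peaks with neither site. It was in 46.5% of the members, 37.6% of the AP-1 peaks and 36.1% of the peaks with neither site, and in 35.3% of the windows. The peaks with both sites held it in 41.7% of cases, which was not tested against the members. This word can share bases with GATAAC. When matches that touched a GATA site were not counted, 42.1% of the members still held it, with odds ratios of 1.21 (interval 1.06 to 1.38, adjusted p = 0.0123) and 1.29 (1.19 to 1.40, adjusted p = 1.31e-08, Fisher's exact test). The MYC-type E-box CACGTG went the other way against the peaks with neither site (3.01% and 4.98%, odds ratio 0.592, interval 0.483 to 0.726), also within GC classes (0.747). TGTGGT of RUNX factors (16.3% of the members, 13.6% of the windows) and TGACAG of MEIS factors (17.96% and 12.01%) exceeded the peaks with neither site at odds ratios of 1.20 and 1.22, and both calls ended within GC classes. The same held for GGAATG of TEAD factors (12.2% and 10.6%) and TTGCNNAA of C/EBP factors (11.05% and 10.9%). Runs of 8 adenines were in 9.07% of the members and 11.9% of the windows, less often than in the peaks with neither site (odds ratio 0.786, within GC classes 0.497), and within GC classes also less often than in the AP-1 peaks (0.621). The call against the peaks with neither site ended with a window of 400 bp (0.877) and without exclusion of G4 motifs (0.874). AAATCA, a core of GFI1B sites, was in 12.4% of the members and 20.7% of the windows. Its odds ratio against the peaks with neither site was 1.12 without and 0.784 within GC classes, but 1.44 with a window of 400 bp, 1.17 with protein-coding TSSs only and 1.18 without exclusion of G4 motifs, where it passed the test. Against the AP-1 peaks the call (1.28) ended within GC classes (1.02), when matches touching a GATA site were not counted (1.22) and under 5 of 10 other settings.

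For the remaining words no difference from either class passed the test under the main settings. AGGAAG of ETS factors was in 25.3% of the members and 18.02% of the windows, TTCNNNGAA of STAT factors in 9.19% and 6.84%, CCAAT of NF-Y in 20.5% and 27.8%, and the longer ETS word ACCGGAAGT in 3 members and 0.0175% of the windows. Within GC classes the STAT and NF-Y words were less frequent in the members than in the peaks with neither site (odds ratios 0.792 and 0.843). With a window of 400 bp the NF-Y word was more frequent in the members (1.25), and with protein-coding TSSs only the longer ETS word was less frequent (0.239), and both differences passed the test. A match to any of these words describes the sequence and does not show that a factor was bound.

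**Figure D4:**
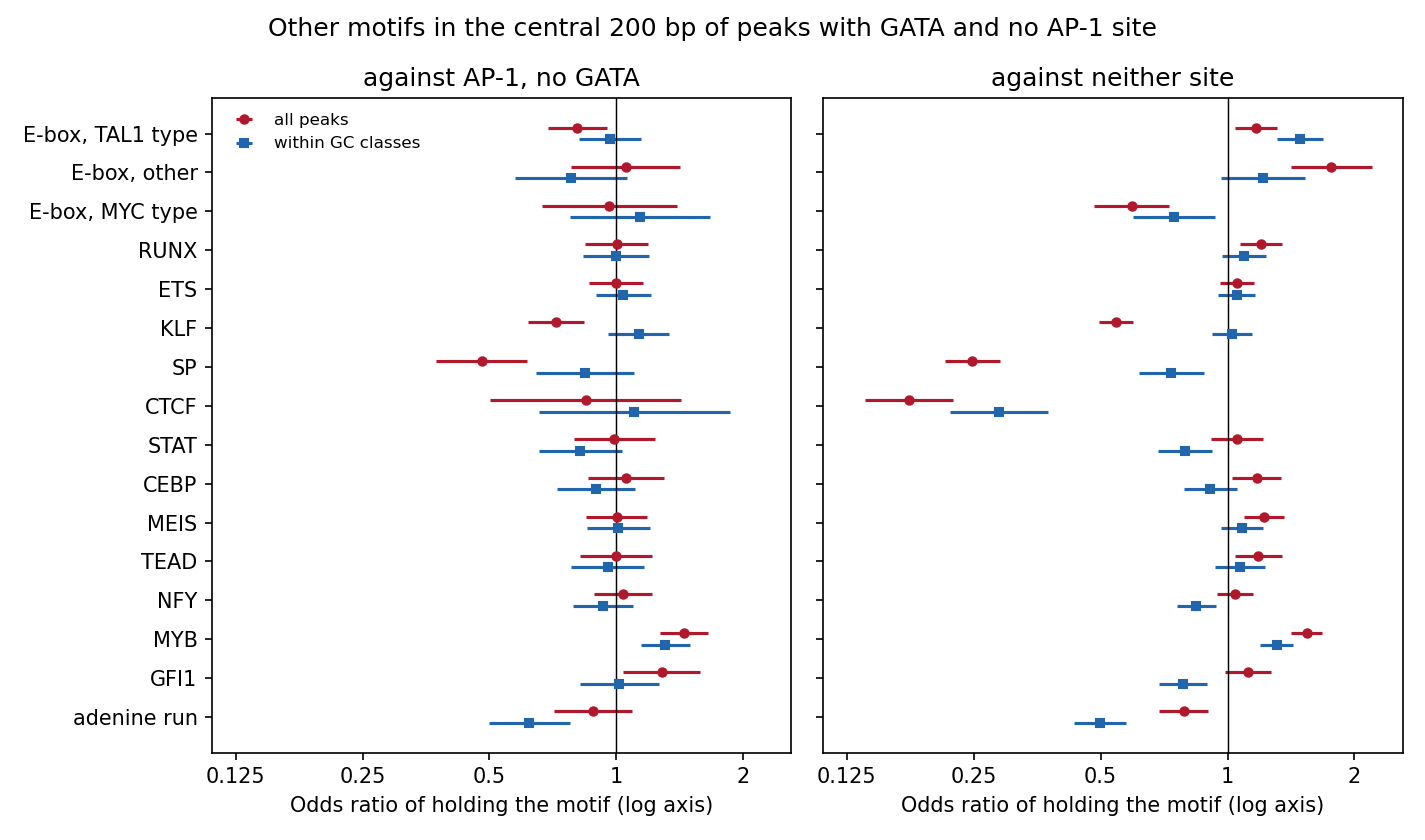
Odds ratio (horizontal log axis, with 95% intervals) of holding each motif in the central 200 bp for peaks with GATA and no AP-1 site, against peaks with AP-1 alone (left) and with neither site (right), over all peaks and within classes of 2 percentage points of GC content. The CTCF motif has the odds ratios farthest from 1, 0.175 and 0.288, against peaks with neither site, and the KLF motif moves from 0.544 to 1.02; the 2 rarest motifs are not drawn.

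The members lay farther from TSSs than the peaks with neither site. Their midpoints were a median of 8224.5 bp from the closest TSS of any transcript (interval 7963 to 8517 bp) and 20906 bp (20082 to 21820 bp) from the closest protein-coding TSS. For the peaks with neither site these medians were 5539 and 13182 bp, for the AP-1 peaks 7655 and 18282 bp and for the peaks with both sites 8433.5 and 24483 bp. A protein-coding TSS lay within 10 kb of 31.1% of the members and 43.4% of the peaks with neither site (odds ratio 0.588, interval 0.541 to 0.639, adjusted p = 6.76e-35, Fisher's exact test; within GC classes 0.674). Against the AP-1 peaks, with 34.2%, the difference did not pass the test (odds ratio 0.868, interval 0.759 to 0.994, adjusted p = 0.0653, Fisher's exact test), and it passed under 5 of 12 alternatives, while within GC classes the odds ratio was 0.953 (0.829 to 1.09). Over 100 kb from any protein-coding TSS lay 931 members (13.4%). The share of members among the distal G4-free peaks rose with distance from a TSS, from 45.2% (interval 42.9 to 47.4%) at 1 to 2 kb to 58.7% (56.5 to 60.8%) at 20 to 50 kb and 72.3% (64.2 to 79.1%) of the 137 peaks over 100 kb away. The composite was carried by 22.3% of the members at 1 to 2 kb, by 33.8% at 20 to 50 kb and by 29.3% of the 99 over 100 kb away.

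Introns held 4372 members (63.0%), exons 335 (4.82%) and intergenic regions 2237 (32.2%). Of the peaks with neither site 52.9% lay in introns and 8.99% in exons, so introns and exons went opposite ways, which was not tested. The share in genes, 67.8%, was above the 61.9% of the peaks with neither site (odds ratio 1.29, interval 1.19 to 1.41, adjusted p = 6.98e-09, Fisher's exact test) and the 64.3% of the AP-1 peaks (odds ratio 1.17, interval 1.02 to 1.34, adjusted p = 0.0384, same test). The second call ended under 5 of 11 alternatives, GC classes among them (odds ratio 1.12, interval 0.974 to 1.28).

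The members stood alone more often than the peaks with neither site, though the peaks with both sites lay farther still from another peak, with medians of 11373.5 and 7930 bp. Another SMARCA4 peak lay within 5 kb of 39.7% of the members and 55.4% of the peaks with neither site (odds ratio 0.531, interval 0.490 to 0.576, adjusted p = 9.12e-52, Fisher's exact test). For the AP-1 peaks the share was 41.9%, which did not differ beyond counting error (odds ratio 0.916, interval 0.804 to 1.04, adjusted p = 0.263, Fisher's exact test). Counting the members alone, 1236 (17.8%) had another member within 5 kb and formed 571 groups, 489 of them pairs. The 2 groups of 5 spanned 11860 bp at chr3:156825535-156837394 and 11879 bp at chr11:85854585-85866463, with CCNL1 and EED as the closest protein-coding genes; they were picked after their values had been seen. Per megabase of sequence there were 2.43 members, with 3.92 on chromosome 19, 3.91 on 17 and 3.88 on 1 and with 1.08 on 13 and 1.20 on X. Chromosome 19 had the lowest share of members among distal G4-free peaks of the chromosomes other than Y (34.0%) and X the highest (62.3%). Chromosome Y had none.

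The lists of membrane, heme, globin, cytokine and myeloid genes had shares of genes with a member nearby whose intervals lay above the share of all protein-coding genes. A member lay within 50 kb of a TSS for 6846 of 20136 protein-coding genes (34.0%), and the lists below are read against this share. Members were near 21 of 24 genes of the red cell membrane (87.5%, interval 69.0 to 95.7%), with 42 distinct members. Near the listed genes of heme synthesis they were found for 6 of 9 (66.7%, interval 35.4 to 87.9%). All 10 globin genes had one, but neighbouring globin genes share members, and there were 4 distinct members in all. The list of erythroid transcription factors also holds factors of other blood lineages, such as SPI1 and IKZF1. Of its 22 genes 11 (50%, interval 30.7 to 69.3%) had a member nearby, and of the genes of iron handling 7 of 16 (43.8%, interval 23.1 to 66.8%). For comparison, a peak with neither site lay near 12 of the 24 membrane genes, 1 of the 9 heme genes, 7 of the 10 globin genes and 6 of the 16 iron genes, and near 25% of all protein-coding genes. Such peaks lay near 14 of the 22 transcription factors and members near 11, a difference that was not tested. Peaks with AP-1 alone lay near 25% of membrane, 22.2% of heme, 27.3% of transcription factor and 12.5% of iron genes. They lay near no globin gene and near 9.07% of all protein-coding genes. For peaks with both sites these shares were 16.7, 0, 9.09, 6.25, 40 and 9.94%, in the same order. Raised shares near red cell lists were thus not particular to the members, and the classes were not tested against each other. Any SMARCA4 peak lay within 50 kb for all 24 membrane genes, all 9 heme genes and 73.8% of all genes. The myeloid list did not keep its place at 10 kb, where it had 6.25% against 12.9% of all protein-coding genes.

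**Figure D5:**
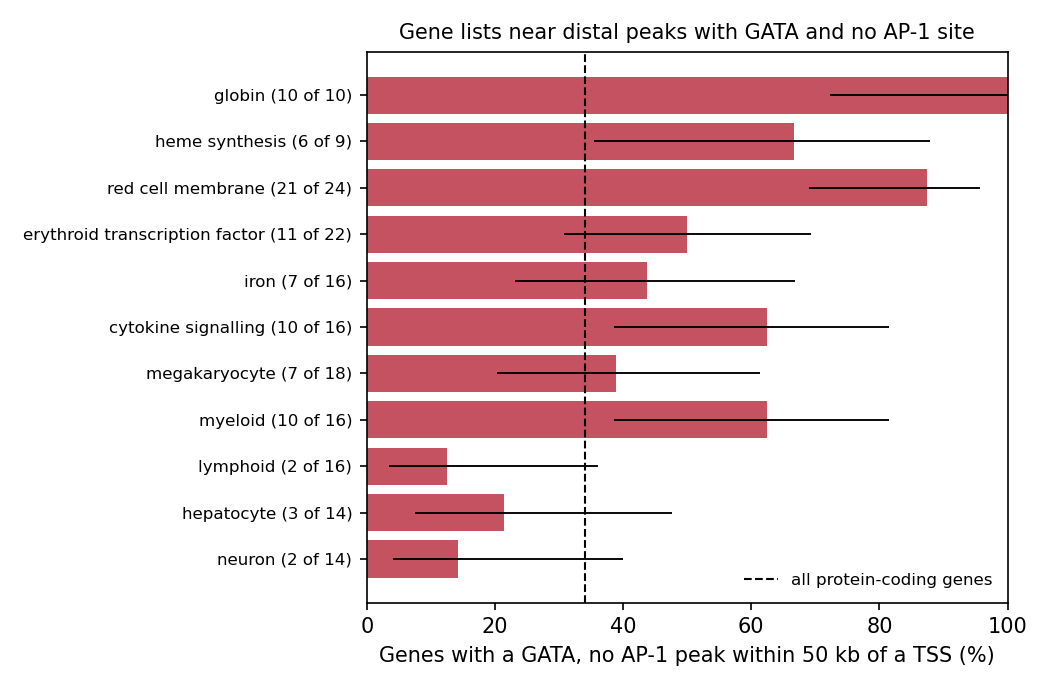
Share of the genes of each list (horizontal axis, %, bars with 95% Wilson intervals) that have a peak with GATA and no AP-1 site within 50 kb of a TSS, with the counts beside the names and the share of all protein-coding genes, 34.0%, as a dashed line. The intervals of the globin, heme, membrane, cytokine and myeloid lists lie above the line, and those of the other lists span it.

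Among the membrane genes, EPB41 had 5 members within 50 kb, and SLC4A1 and RHCE, which encodes a Rh antigen, had 4 each. XK, which encodes a partner of the Kell antigen, GYPB, which encodes glycophorin B, and ANK1, which encodes the ankyrin that ties spectrin to the membrane, had 3 each. In heme synthesis UROD had 3 members, CPOX, FECH and ALAD 2 each and ALAS2 and ALAS1 1 each, while the other 3 had none. TFRC, the receptor that takes up transferrin, had 5 members, the closest 2053 bp from a TSS. HFE, which encodes a regulator of iron uptake, NCOA4, which delivers ferritin for breakdown, and the iron exporter SLC40A1 had 2 each. The mitochondrial iron importer SLC25A37 had 1, at 1033 bp. Of the transcription factors RUNX1 had 4, GATA2 and the GATA cofactor ZFPM1 3 each, and NFE2, MYB and LMO2 2 each. Of the other genes of this list 5 had 1 each and 11 had none. Of the globin genes HBE1, HBG2, HBZ and HBM had 2 each and the other 6 had 1 each. The member closest to a globin TSS, at chr11:5525574-5526063, lay 1015 bp from the start of a long HBE1 transcript and 1016 bp from a TSS of HBG2. The annotation also gives this stretch to OR51B5. HBE1 and HBG2 both count this peak as 1 of their 2 members, and it is 1 of the 4 distinct members near globin genes.

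Among genes of cytokine signalling 10 of 16 (62.5%, interval 38.6 to 81.5%) had a member nearby, and 10 of 16 had a peak with neither site. PIM1 had 6, and GAB2 and GRB2, adaptor proteins of receptor and BCR-ABL signalling, had 4 each. BCR, ABL1 and STAT5A had 2 each. The member closest to this list spanned chr22:23520688-23521059 and lay 1017 bp from a TSS of BCR. The lists of other lineages varied. Megakaryocyte genes had a member in 7 of 18 cases (38.9%), with PLEK at 3 and ITGA2B, GP9, TUBB1 and NBEAL2 at 2 each. Myeloid genes had a member in 10 of 16 cases (62.5%, interval 38.6 to 81.5%), with CSF3R and S100A8 at 3 and S100A9 at 2. Some myeloid genes share members, and there were 11 distinct members in all. With 10 kb in place of 50 kb the myeloid list fell to 1 of 16 (6.25%), below the 12.9% of all protein-coding genes, the globin list to 4 of 10 and the transcription factors to 5 of 22 (22.7%), while the membrane list kept 12 of 24 (50%), the heme list 4 of 9 (44.4%), the iron list 5 of 16, the cytokine list 5 of 16 and the megakaryocyte list 5 of 18 (27.8%). With 100 kb the megakaryocyte list rose to 16 of 18 (88.9%) and all protein-coding genes to 49.2%. Lymphoid genes had a member in 2 of 16 cases (LCK and CD5), genes of neurons in 2 of 14 (GRIN1 and RBFOX3) and genes of hepatocytes in 3 of 14 (CYP3A4, TF and HP). Distance assigns a peak to a gene by position alone, and no link between peak and gene was measured.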

How the data were processed

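The authors used cutadapt for trimming and BWA for alignment (hg19), removed duplicates with Picard and SAMtools, called peaks with MACS2 against input at a q value of 0.05 and kept regions found in at least 2 of 3 replicates with bedtools. The deposited list gives start and end positions in bp on hg19 and no scores. Replicates are pooled in it, and it does not give depth, which the paper's reporting summary states for each library and which was not used.

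Transcription starts came from GENCODE v44 lifted to GRCh37 (254413 transcripts), and sites were sought in the hg19 sequence. Shares have Wilson intervals and were compared by Fisher's exact test, with Benjamini-Hochberg adjustment over 53 tests, or over the 36 motif tests. Odds ratios within GC classes are Mantel-Haenszel estimates. The code was tried on simulated data first. Members and gene lists were chosen with earlier results of these data known. Named genes were the up to 6 of each list with the most members within 50 kb. Named regions were the widest members, those with the most sites and those closest to a list. Others lay near a listed gene and had the composite within 10 bp of the centre. The 2 groups of 5 members were picked after their values had been seen. Alternatives varied distance, window, width, chromosomes, merging, G4 motifs, site number and GC content. Python 3.11.15, numpy 2.4.6, scipy 1.17.1, pandas 2.3.3, pysam 0.24.0 and matplotlib 3.10.9 were used.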

Additional observations from a re-analysis of the deposited data

How the results depend on the processing

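Of 239 alternatives 203 left the result the same, 15 weakened it, 5 strengthened it, 1 reversed it and 15 moved a value. No paired analysis was possible because single replicates cannot be read from a pooled list, and leaving out a replicate was not possible for the same reason.

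The share of members was 54.9% from 2.5 kb, 50.9% with protein-coding TSSs only, 42.2% in the central 100 bp, 58.8% in 400 bp, 54.7% for peaks of at least 200 bp, 51.1% without exclusion of G4 motifs, 54.1% with G4 loops of up to 12 bases and 51.4% without members of 4 or more sites. Their number ran from 5525 to 7699.

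Wide peaks against AP-1 weakened to an odds ratio of 1.16 (2.5 kb), 1.13 (protein-coding TSSs), 1.15 (400 bp), 1.11 (at least 200 bp) and 1.09 (no G4 exclusion). Against neither they weakened to 1.10 (peaks at most 500 bp apart merged) and reversed to 0.953 (wide from 600 bp). In genes against AP-1 weakened to 1.11 (100 bp), 1.11 (at least 200 bp), 1.15 (autosomes), 1.11 (merged) and 1.12 (GC classes). Near a protein-coding TSS against AP-1 became stronger at 0.851 (400 bp), 0.799 (at least 200 bp), 0.851 (autosomes), 0.830 (no G4 exclusion) and 0.833 (50 kb), and lay at 0.953 in GC classes, where it did not pass.

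Of the tests chosen after seeing the data, wide peaks with 3 or more sites weakened to 1.01 (100 bp), 1.14 (at least 200 bp) and 1.12 (merged), and AGATAA against peaks with both sites to 1.16 (100 bp). Motifs that differed from AP-1 numbered 3 (100 bp), 3 (at least 200 bp), 3 (loops of up to 12 bases) and 2 (GC classes), and from neither 8 (100 bp). Listed genes with a member nearby numbered 45 at 10 kb and, in an alternative chosen after seeing the data, 58 at 20 kb, against 89 at 50 kb. The composite at centre against flank ran from 4.18 to 5.95, AGATAA from 1.62 to 2.03 and a following G from 2.13 to 2.58.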

Other observations

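In the 343 to 510 bp width range 30.5% of the members carried the composite, and in the 238 to 343 bp range 25.6%. Central GATA sites lay within 25 bp of the midpoint in 33.8% of cases among the narrowest members. Members 50 to 100 kb from a TSS made up 61.4% of the distal G4-free peaks there, and 35.2% of them carried the composite. Protein-coding gene bodies held 55.5% of the members.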
